A study of Mus musculus with 12 samples.

Results

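DNA replication and S phase genes were followed in 4T1, a tumour cell line that arose in the mammary gland of a BALB/c mouse and is used as a model of metastatic breast cancer. The list holds 39 genes, chosen for their place in origin licensing, helicase activation, DNA synthesis, nucleotide supply or entry into S phase. All 39 were among the 16283 genes of the count table, and all 39 were among the 13601 genes with enough reads to be tested. The 12 libraries came from 3 Cas9-edited cell lines, each given vehicle or 20 ng/ml interferon gamma (IFN-gamma) for 24 hours, with 2 libraries per group. The control line carried a guide against Rosa26, a locus that serves as a neutral target. The other lines carried sgRNA1 or sgRNA2, different guides against Cebpd, which encodes the transcription factor C/EBPδ. The control line stood beside the guide lines in both treatments, so all 6 groups had passed through editing. Where the guides cut, and whether a line is a clone or a pool, is not given in the sources used here. The study asked how the transcriptome of these tumour cells differs without Cebpd and how it answers IFN-gamma.

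Before S phase, the origin recognition complex, Cdc6 and Cdt1 load a ring of the proteins Mcm2 to Mcm7 onto DNA, the step called licensing. Cyclin E with its kinase then helps to switch this ring on, and Cdc45 and the GINS proteins join it to make the active helicase. Polymerases copy the strands behind it, held on by the Pcna clamp, while ribonucleotide reductase and thymidylate synthase supply the nucleotides. Many of these genes are known targets of the E2F transcription factors, which drive them at the border of G1 and S phase. IFN-gamma is a cytokine that in many cell types is known to slow proliferation.

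Each library held 16912710 to 24784371 counts, and levels are given as CPM, a gene's counts scaled to a common library size. The spread between the libraries of a group exceeded counting noise in all 6 groups. Whether they came from separate cultures is not given, so each p-value speaks only of the scatter among these libraries, which could be technical. Cebpd mRNA was read in every library. Its CPM was 9.09 and 7.13 in control vehicle, 13.6 and 13.4 in sgRNA1 cells and 10.6 and 8.51 in sgRNA2 cells. With IFN-gamma present, it stood at 53.5 and 49.1 in control, 45.9 and 45.6 in sgRNA1 cells and 30.2 and 29.4 in sgRNA2 cells. Edited genes can still be transcribed, so these values do not check the guide labels. The treatment labels were checked with 10 IFN-gamma target genes, and 10 of 10 rose with IFN-gamma in each of the 3 lines. The epithelial markers Epcam, Krt8, Krt18, Krt7, Cldn4 and Cdh1 were read at 180 to 1230 CPM in every library. The leukocyte marker Ptprc stayed at or under 0.567 CPM and the endothelial marker Pecam1 at or under 0.398 CPM. Other markers of these kinds were read at more, with the leukocyte marker Csf1r at 0.308 to 9.02 CPM. The fibroblast marker Pdgfra was at 13.8 to 28.8 CPM.

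The share of all counts that fell on the 39 genes separated the groups. It was 0.55% and 0.548% in control vehicle, 0.494% and 0.495% in sgRNA1 cells and 0.303% and 0.297% in sgRNA2 cells. With IFN-gamma it was 0.373% and 0.374% in control, 0.506% and 0.505% in sgRNA1 cells and 0.43% and 0.434% in sgRNA2 cells. Control vehicle libraries were thus the highest and sgRNA2 vehicle libraries the lowest, and no group's libraries overlapped those of another. The share was lower with IFN-gamma than with vehicle in the control line and higher in the sgRNA2 line. In the sgRNA1 line the direction turned with the scaling: the share of counts was slightly higher with IFN-gamma, while the scaled sum of the 39 genes went from 5032 and 5051 CPM in vehicle to 4668 and 4629. Counts of ribosomal protein genes moved along with the lowest group, at 13.2% and 13.7% of counts in sgRNA2 vehicle against 7.38% to 11.6% in the other 10 libraries. Mitochondrial counts were highest in the groups with the lowest shares, at 1.12% and 1.14% in sgRNA2 vehicle and 1.02% and 1.18% in control with IFN-gamma, against 0.533% to 0.839% in the other 8 libraries. The part of these measures in the results was not tested.

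**Figure D1:**
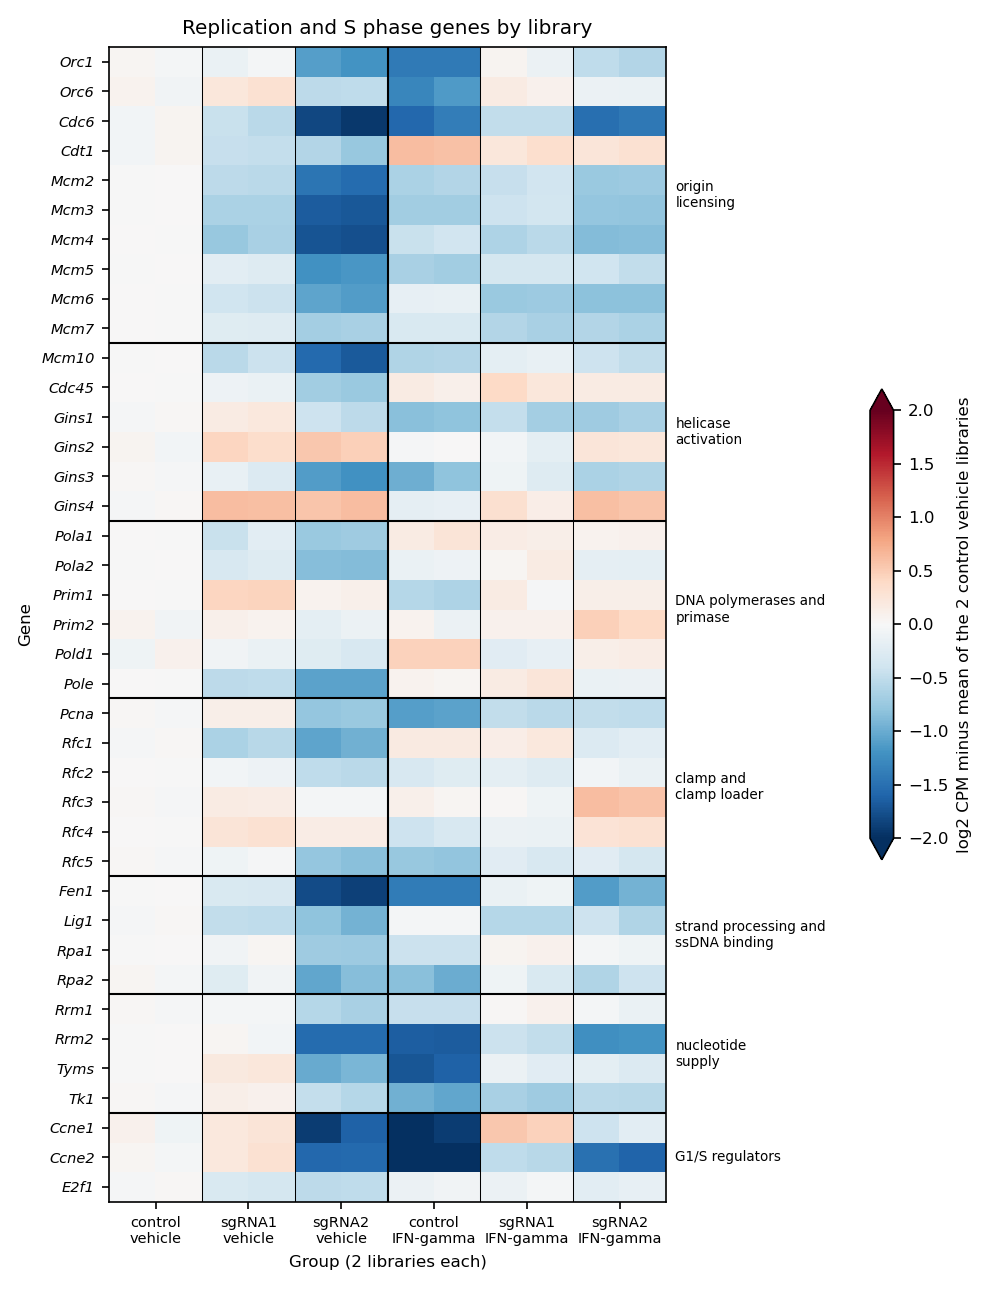
Each row is a gene and each column a library, grouped by line and treatment, and colour gives log2 CPM minus the mean of the 2 control vehicle libraries, with values past 2 in either direction drawn in the end colours. The sgRNA2 vehicle and control IFN-gamma columns are the bluest, and Cdt1, Gins2 and Gins4 run against most other rows in some of the groups.

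In the control line, IFN-gamma lowered most of the replication genes. Of 39 members, 27 fell, 5 rose and 7 did not pass the test, while 34.1% of all genes tested fell and 36.4% rose (70.4% called). Calls rest on the quasi-likelihood test of edgeR, with p-values adjusted by Benjamini-Hochberg over all genes tested and a threshold of 0.05. The median log2 fold change of the members was -0.46, against 0.01 over all genes. The cyclin E genes Ccne2 (-3.40 ± 0.09) and Ccne1 (-2.003 ± 0.13) fell furthest, in log2 fold change ± SE, the form of all fold changes here. They were followed by the nucleotide synthesis genes Tyms and Rrm2, the licensing factors Cdc6 and Orc1, and the flap endonuclease Fen1. The genes that rose were Cdt1, Pold1, Pola1, Rfc1 and Cdc45. The Cdc45 rise of 0.14 was small and was no longer called when either control vehicle library was left out (adjusted p = 0.107 and 0.117). It was lost in the same way without either control IFN-gamma library, and the Pola1 rise without the second of them (adjusted p = 0.0582). Leaving out the first sgRNA2 IFN-gamma library or either sgRNA2 vehicle library, which enter only through the shared spread, also ended the Cdc45 call.

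With sgRNA1, the same treatment left the members near balance. Under IFN-gamma 13 rose, 17 fell and 9 did not pass, with 31.7% of all genes rising and 29.6% falling (61.4% called), and the median of the members was -0.04. Upper quartile scaling, an alternative way to equalise the libraries, gave 9 rises and 19 falls with a median of -0.13. Genes that rose included Rfc1 (0.77 ± 0.05), the large subunit of the clamp loader, Cdt1 (0.76 ± 0.06) and Pole (0.72 ± 0.05), the catalytic subunit of polymerase epsilon. Genes that fell included Ccne2 (-0.78 ± 0.07), thymidine kinase Tk1 (-0.78 ± 0.05), Gins1 (-0.76 ± 0.09) and Pcna (-0.63 ± 0.04).

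With sgRNA2, IFN-gamma raised nearly the whole list. The test called 32 members higher and 1 lower (Gins2), against 30.5% and 29.2% of all genes (59.7% called), and 6 did not pass. The median of the members was 0.52. The largest rises were those of Ccne1 (1.45 ± 0.13), Mcm10 (1.16 ± 0.06), Cdt1 (0.95 ± 0.06) and Pole (0.94 ± 0.05). For this contrast upper quartile scaling shifted the all-gene median by -0.12, and rises went from 51.1% to 38.1% of all calls.

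The difference between these responses was tested directly. Against the control response, the response with sgRNA2 was higher for 36 members and lower for 1, with 2 not called, where 30.4% of all genes were higher and 34.7% lower (65.1% called). For sgRNA1 the difference was higher for 27 members and lower for 5, against 26.9% and 28.2% of all genes (55.1% called). With the guides averaged it was higher for 36 and lower for 2, against 30.5% and 33.4% of all genes (63.9% called), with a median of 0.77. That average treats the guides as fixed. When the 4 guide libraries of a treatment were taken as 1 group, so that the gap between guides counted as error, 7 members were called in place of 38. These differences share the control libraries, so they are not separate evidence. The same 2 sgRNA2 vehicle libraries enter the sgRNA2 response, its difference from control and the sgRNA2 contrasts in vehicle. Those results are therefore not separate evidence either. The genes that fell with IFN-gamma in control and rose with each guide numbered 6, Mcm2, Mcm3, Mcm4, Mcm10, Fen1 and Ccne1. In the sgRNA2 line this reversal held for 21 members. The share of all genes with such opposite calls is not given here, so whether these counts are unusual is not known. With sgRNA1 the rises of Mcm2, Mcm4, Fen1 and Ccne1 were small (0.11, 0.13, 0.21 and 0.27) and were not called under upper quartile scaling (adjusted p = 0.818, 0.574, 0.0683 and 0.177). Single libraries also decided some of them: Mcm4 was not called without the first sgRNA1 vehicle library (0.311), Mcm2 without the second sgRNA1 IFN-gamma library (0.285) and Ccne1 without the first (0.172).

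**Figure D2:**
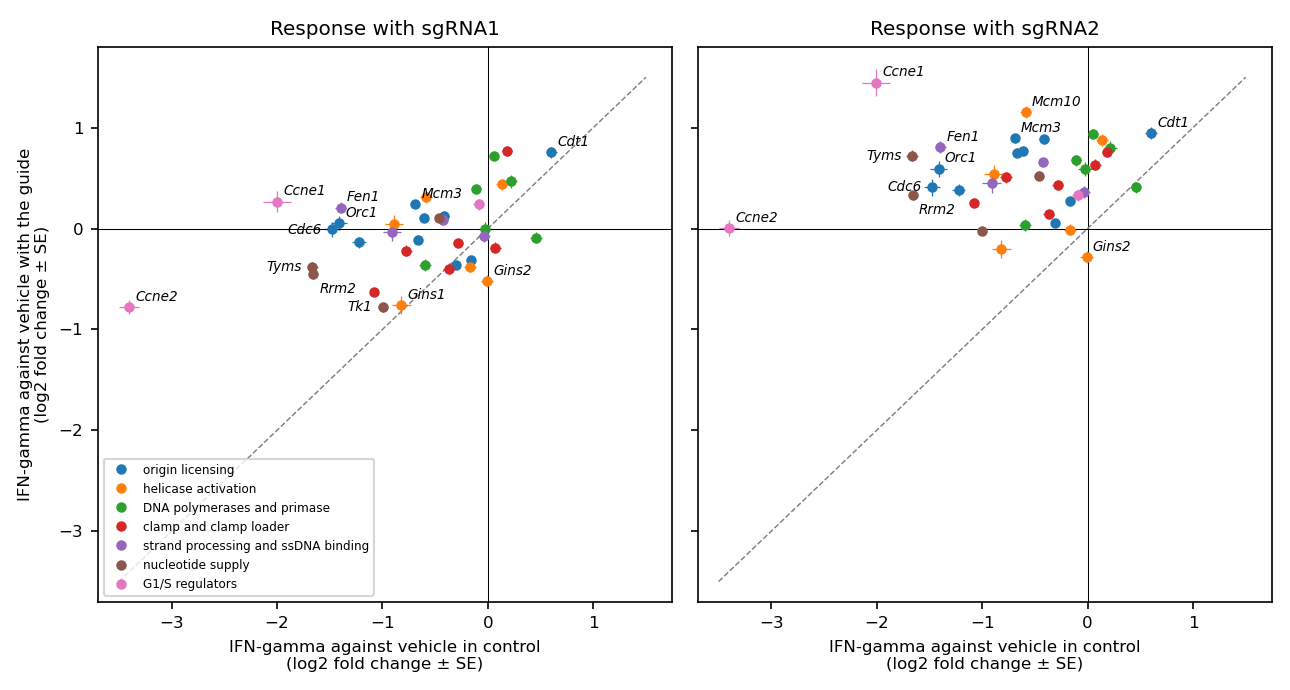
Each point is a gene, with its log2 fold change (± SE) with IFN-gamma in the control line on the horizontal axis and in the sgRNA1 line (left) or sgRNA2 line (right) on the vertical axis, coloured by role; the dashed line marks equal responses. Most points lie above the dashed line, more of them with sgRNA2, where they lie mostly above 0 as well, with Ccne1 at -2.003 in control and 1.45 with sgRNA2.

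Without IFN-gamma, the sgRNA2 line started from lower levels, while the members were mixed in direction in the sgRNA1 line. In vehicle, 33 members were lower and 3 higher with sgRNA2 than in control, with a median of -0.80, where 35% of all genes were lower and 38.3% higher (73.3% called). The 4 largest differences were those of Cdc6 (-1.87 ± 0.08), Fen1 (-1.83 ± 0.06), Ccne1 (-1.75 ± 0.13) and Mcm4 (-1.74 ± 0.05). With sgRNA1, 17 members were lower and 9 higher, with a median of -0.11, against 26.9% and 25.6% of all genes (52.5% called). Under upper quartile scaling this became 16 lower and 13 higher with a median of -0.01. The lower genes with sgRNA1 were led by Mcm4 (-0.70 ± 0.05), Mcm3 (-0.63 ± 0.04), Rfc1 (-0.59 ± 0.05) and Mcm2 (-0.53 ± 0.04). Gins4 (0.61 ± 0.06), the primase subunit Prim1 (0.44 ± 0.06), Gins2 (0.39 ± 0.06) and Rfc4 (0.28 ± 0.05) were higher with sgRNA1. Averaged over the guides, 32 members were lower and 4 higher, against 33.7% and 34% of all genes (67.7% called). With the guide libraries taken as 1 group, 15 members were called in place of 36.

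The guide lines also differed from each other. In vehicle, 37 members were lower with sgRNA2 than with sgRNA1, against 29.1% of all genes lower and 33.2% higher (62.3% called), and Gins2 and Gins4 did not pass. The median difference was -0.65, with Ccne1 (-1.98 ± 0.13), Ccne2 (-1.82 ± 0.08), Rrm2 (-1.53 ± 0.05) and Fen1 (-1.51 ± 0.06) furthest apart. In IFN-gamma the gap was narrower, with 19 members lower and 8 higher with sgRNA2, a median of -0.10, and 24.5% and 23.4% of all genes (47.9% called). Rfc3 (0.62 ± 0.05), Rfc4 (0.41 ± 0.05), Prim2 (0.36 ± 0.07) and Gins2 (0.36 ± 0.06) led those higher with sgRNA2, and Ccne2 (-1.03 ± 0.08) and Cdc6 (-0.97 ± 0.08) those lower.

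Several measures of the sgRNA2 vehicle libraries stood apart along with the low replication genes. Of the 10 IFN-gamma target genes used as a label check, 7 were higher than in control vehicle with sgRNA2, with a median of 2.57. Examples were the immunoproteasome subunit gene Psmb9 (3.99 ± 0.15) and the GTPase gene Gbp2 (3.69 ± 0.16). With sgRNA1, 5 of the 10 were higher and 1 was lower, with a median of 1.1. Over all genes tested, 38.3% were higher with sgRNA2 and 25.6% with sgRNA1. The 3 leukocyte markers measured, mostly Csf1r reads, summed to 7.88 and 9.59 CPM in sgRNA2 vehicle, 3.93 and 2.23 in sgRNA1 vehicle and 1.09 and 1.1 in control vehicle, and to 0.617 to 1.59 CPM in the 6 IFN-gamma libraries. The fibroblast markers measured, Pdgfra and Col1a1, summed to 32.3 and 32 CPM in sgRNA2 vehicle, 20.6 and 18.8 in sgRNA1 vehicle and 15.2 and 14.1 in control vehicle. With IFN-gamma that sum was 24.7 and 25.1 CPM in control, 30.7 and 27.4 in sgRNA1 cells and 22.3 and 26.4 in sgRNA2 cells, so it was above control vehicle in each line. Ptprc and Itgam stayed at or under 0.567 and 0.161 CPM, and 11 further markers on these lists were not analysed here. The part of these measures in the result was not tested. In bulk RNA, fewer cells in S phase and less of each mRNA per cell cannot be told apart.

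With IFN-gamma present, more members were above control than below it with each guide, though not in every role group. Among the 10 licensing genes, 3 were higher and 6 lower with sgRNA2 than in control. The guides averaged were above control for 25 members and below it for 7, with a median of 0.28, where 32.5% of all genes were higher and 33.4% lower (65.9% called). With the guide libraries as 1 group, 12 members were called in place of 32. With sgRNA1 26 members were higher and 6 lower, against 31.6% and 33.3% of all genes (64.9% called). With sgRNA2 23 were higher and 10 lower, against 30.2% and 31.6% (61.8% called). The members furthest above control were Ccne2 (2.88 ± 0.09 with sgRNA1 and 1.85 ± 0.10 with sgRNA2), Ccne1 (2.50 ± 0.13 and 1.70 ± 0.13) and Tyms (1.49 ± 0.06 and 1.43 ± 0.06). The members furthest below it with sgRNA1 were Pold1 (-0.66 ± 0.05), Mcm6 (-0.57 ± 0.04), Lig1 (-0.53 ± 0.06) and Cdt1 (-0.32 ± 0.05). With sgRNA2 they were Mcm6 (-0.66 ± 0.04), Lig1 (-0.47 ± 0.06), Mcm4 (-0.45 ± 0.05) and Rfc1 (-0.43 ± 0.05). These comparisons use the same control IFN-gamma libraries.

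Many of the called changes were small. With a change of at least 1.5-fold also required, IFN-gamma lowered 19 members and raised 1 in control, where 20.2% of all genes fell and 22.4% rose by that much. With sgRNA1 it raised 3 and lowered 4, against 15% and 13.2%, and with sgRNA2 it raised 18, against 11.9% (14.3% of all genes fell). In vehicle 27 members were lower and 1 higher with sgRNA2, against 19.4% and 26%, and 3 were lower and 1 higher with sgRNA1, against 6.26% and 10.2%. For the guides averaged the counts were 16 lower and 1 higher, against 12.6% and 18.9%. In IFN-gamma 11 members were higher and 1 lower with sgRNA1 (17% and 15.2% of all genes), 8 and 1 with sgRNA2 (14.8% and 12%), and 8 and 1 for the guides averaged (15.4% and 12.9%). Between the guides, 22 members were lower with sgRNA2 in vehicle (12.3% of all genes lower, 16.8% higher), and 5 lower and 1 higher in IFN-gamma (5.73% and 6.69%). The difference in response was higher by that much for 28 members with sgRNA2 (20.2% of all genes higher, 24.3% lower), 15 with sgRNA1 (15.4% and 16.3%) and 23 for the guides averaged (18.1% and 20.7%).

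Among the licensing genes, the ring subunits Mcm2 to Mcm7 were all lower with each guide than in control in vehicle. Of all genes tested, 26.9% were lower with sgRNA1 and 35% with sgRNA2. The summed level of the 6 subunits was 1671 and 1675 CPM in the control vehicle libraries. It was 1246 and 1255 in sgRNA1 cells and 718 and 721 in sgRNA2 cells. In IFN-gamma the sum was 1206 and 1208 in control, 1175 and 1195 in sgRNA1 cells and 1037 and 1064 in sgRNA2 cells. In vehicle the lines were far apart, and in IFN-gamma the control libraries lay just above those of sgRNA1. In IFN-gamma, 1 of the 6 was higher and 5 were lower in sgRNA2 cells than in control, and 3 were higher and 3 lower in sgRNA1 cells. There 30.2% of all genes were higher and 31.6% lower with sgRNA2, and 31.6% and 33.3% with sgRNA1. All 6 subunits fell with IFN-gamma in control, and 5 of 6, all but Mcm7, rose with sgRNA2. Of all genes, 34.1% fell in control and 30.5% rose with sgRNA2, while 31.7% rose and 29.6% fell with sgRNA1. With sgRNA1, Mcm2, Mcm3 and Mcm4 rose, Mcm5, Mcm6 and Mcm7 fell, and the calls of Mcm2, Mcm4 and Mcm5 were lost when single libraries were left out (adjusted p up to 0.285, 0.311 and 0.216).

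Mcm3 lies on chromosome 1 at 20802968 to 20820312 (GRCm38, minus strand). Its CPM in vehicle was 275 and 280 in control, 178 and 180 in sgRNA1 cells and 87.2 and 85.7 in sgRNA2 cells. Under IFN-gamma its level was 172 and 172 in control, 207 and 216 in sgRNA1 cells and 162 and 160 in sgRNA2 cells. Control was the highest line in vehicle and lay between the guide lines in IFN-gamma. Its response was -0.69 ± 0.04 in control, 0.24 ± 0.04 with sgRNA1 and 0.89 ± 0.04 with sgRNA2, and both differences from control were called (0.93 and 1.58, adjusted p = 3.97e-10 and 1.5e-13).

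Mcm4 had the same order in vehicle, at 205 and 204 CPM in control, 121 and 130 in sgRNA1 cells and 61.5 and 60.3 in sgRNA2 cells. In IFN-gamma control stayed on top, at 150 and 156 CPM, over 133 and 140 in sgRNA1 cells and 112 and 113 in sgRNA2 cells. Mcm2 was at 221 and 223 CPM in control vehicle, 155 and 152 in sgRNA1 cells and 80.1 and 76.1 in sgRNA2 cells. In IFN-gamma the lines came close, at 143 and 147, 161 and 170, and 132 and 134 CPM. Mcm6 was at 268 and 265 CPM in control vehicle and 237 and 239 in control IFN-gamma, the smallest fall of the ring. With the guides it was at 201 and 198 and at 128 and 122 CPM in vehicle, and at 159 and 162 and at 151 and 150 CPM in IFN-gamma. Mcm6 was thus below control with both guides under both treatments. Mcm5, which took the most reads of the licensing genes, was at 391 and 395 CPM in control vehicle, 339 and 328 in sgRNA1 cells and 169 and 175 in sgRNA2 cells. The IFN-gamma libraries held 252 and 243, 309 and 310, and 300 and 280 CPM, so that both guide lines stood above control. Mcm7 was at 312 and 309 CPM in control vehicle and 199 to 262 CPM in the other libraries but sgRNA2 vehicle, where it was 195 and 199.

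The promoters of Mcm5 and Mcm6 are shown because both genes belong to the ring and carry more than 1 match to the E2F motif in the stretch before the start. The motif searched was TTTNNCGC with C or G at both N, on both strands, and overlapping matches were allowed. Both stretches are the 160 bases before the RefSeq start (GRCm38.p6), 5′ to 3′ on the gene's strand, at chr8:75109349-75109508 (plus strand) and chr1:128359706-128359865 (minus strand). They lie outside the genes as GENCODE vM21 draws them. Capitals mark matches to the E2F motif and to the CCAAT box (CCAAT or its complement ATTGG).
Mcm5: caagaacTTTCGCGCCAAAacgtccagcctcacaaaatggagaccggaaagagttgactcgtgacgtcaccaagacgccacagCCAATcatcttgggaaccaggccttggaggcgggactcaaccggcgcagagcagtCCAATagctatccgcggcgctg
Mcm6: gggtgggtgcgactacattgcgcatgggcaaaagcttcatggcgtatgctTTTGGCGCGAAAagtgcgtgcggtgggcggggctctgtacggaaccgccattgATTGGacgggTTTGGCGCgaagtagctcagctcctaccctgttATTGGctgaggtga

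Mcm5 holds 2 matches to the E2F motif, which overlap on opposite strands, and Mcm6 holds 3, of which 2 overlap. Over windows from 250 bases before to 50 after the start, 12 of the 31 members with a window (38.7%) held the motif. The share was 4.59% among 11123 genes of the count table and 2.26% among all 32851 windows. The CCAAT box was in 61.3% of the members and 43.2% of the table's genes. The median response to IFN-gamma was -0.23 with the motif (12 genes) and -0.61 without it (19 genes) in control, and 0.57 and 0.52 with sgRNA2. With sgRNA1 these medians were -0.04 and 0.08. A match describes letters only, and the other 8 members had no window in the table.

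The loading factors Orc1, Orc6 and Cdc6 fell with IFN-gamma in control and rose with sgRNA2, while Cdt1 rose in every line. Orc1, an ATP-binding subunit of the origin recognition complex, was at 48.2 and 45.8 CPM in control vehicle, 42.9 and 45.9 in sgRNA1 cells and 21.9 and 20.6 in sgRNA2 cells. In IFN-gamma it was at 17.6 and 17.7 in control, 49 and 43.2 in sgRNA1 cells and 33 and 31.3 in sgRNA2 cells. Control overlapped sgRNA1 in vehicle and lay below both guide lines in IFN-gamma. Orc6, another subunit, was at 107 and 96.6 CPM in control vehicle and 41.1 and 46.3 in control IFN-gamma. With the guides Orc6 ran from 70.9 to 125 CPM in vehicle and from 92.5 to 114 in IFN-gamma, where every guide library was above control. Gm12743, on the other strand, overlaps 376 exon bases of Orc1. If the libraries were unstranded, as they were treated here, reads of the 2 strands cannot be told apart.

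Cdc6, the ATPase that recruits the ring, lies on chromosome 11 at 98907801 to 98923940 (plus strand). It was at 54.3 and 58.7 CPM in control vehicle, 41.6 and 39 in sgRNA1 cells and 16 and 14.9 in sgRNA2 cells. With IFN-gamma present, it stood at 19 and 21.5 in control, 40.1 and 40.1 in sgRNA1 cells and 19.9 and 21 in sgRNA2 cells. IFN-gamma therefore brought control down to the sgRNA2 level, where the difference between these lines was 0.02 ± 0.08 (adjusted p = 0.867). Its response differed from control by 1.47 ± 0.10 with sgRNA1 and 1.89 ± 0.11 with sgRNA2. Cdt1, the partner of Cdc6 in loading, was at 121 and 129 CPM in control vehicle, 90.8 and 89.2 in sgRNA1 cells and 83 and 73.6 in sgRNA2 cells. IFN-gamma brought Cdt1 to 192 and 187, 147 and 158, and 148 and 154 CPM. The rises were 0.60 ± 0.05 in control, 0.76 ± 0.06 with sgRNA1 and 0.95 ± 0.06 with sgRNA2, and control stayed above both guide lines.

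**Figure D3:**
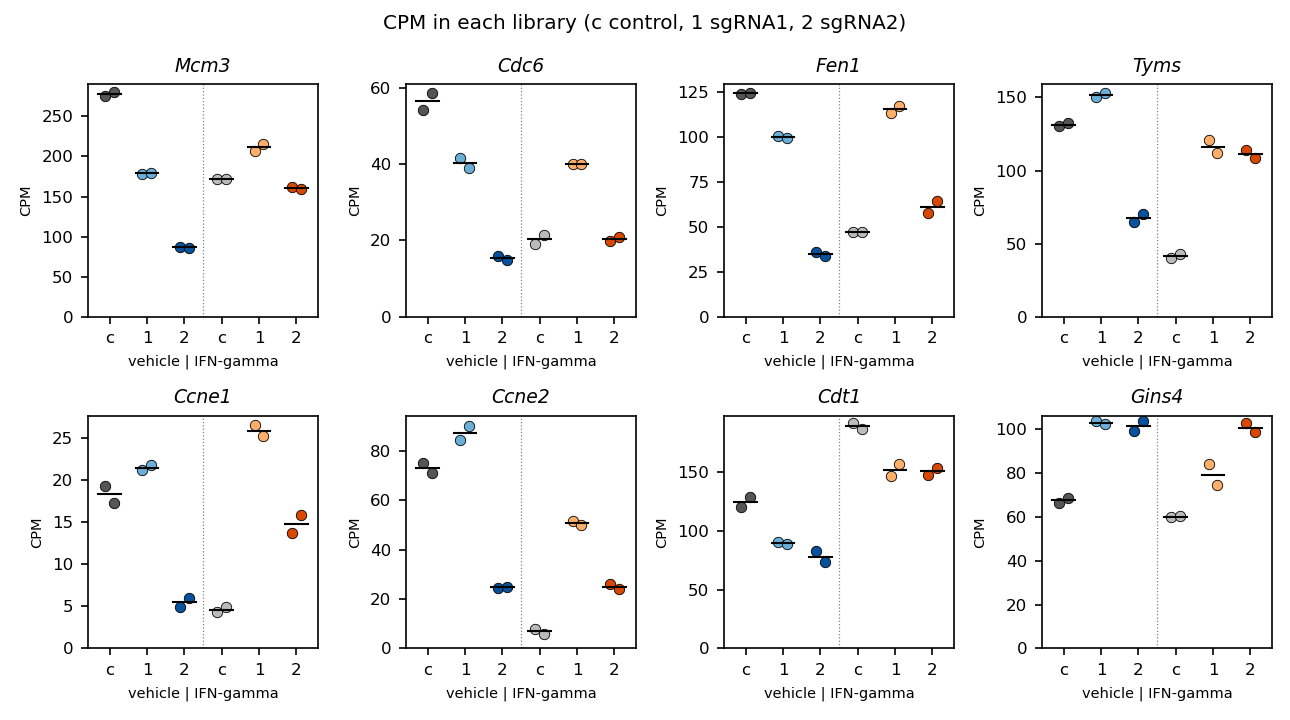
Points give CPM in each library and bars the mean of 2 libraries, for 8 genes, with the control (c), sgRNA1 (1) and sgRNA2 (2) lines in vehicle on the left and IFN-gamma on the right of each panel. Ccne2 drops to 7.88 and 5.86 CPM in control IFN-gamma, Cdt1 rises in all lines, and Gins4 is highest in the guide lines.

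Among the genes of helicase activation, the GINS subunits did not move as a unit. Gins3 followed the ring, at 34 and 33.1 CPM in control vehicle, 15.5 and 14.5 in sgRNA2 vehicle and 17.1 and 19.1 in control IFN-gamma. Gins4 was higher in the guide lines, at 66.3 and 68.8 CPM in control vehicle against 104 and 103 in sgRNA1 cells and 99.1 and 104 in sgRNA2 cells. In IFN-gamma Gins4 was at 59.8 and 60.5 in control, 84.3 and 74.4 in sgRNA1 cells and 103 and 98.9 in sgRNA2 cells. Its difference in response was not called with sgRNA2 (0.16 ± 0.08, adjusted p = 0.0959). Gins2 was at 69.3 and 64.1 CPM in control vehicle, 90.2 and 84.8 in sgRNA1 cells and 97.3 and 92.8 in sgRNA2 cells. Under IFN-gamma its level was 65.3 and 67.3, 64 and 58, and 78.6 and 77.7 CPM. Gins2 fell with IFN-gamma in both guide lines (-0.52 ± 0.06 and -0.28 ± 0.06) and was at -0.01 ± 0.06 in control. The fall with sgRNA2 was the reverse of most members, while in the sgRNA1 line 17 members fell and 13 rose. Gins2 overlaps 2758 exon bases of Gse1 on the other strand, so its counts are uncertain to that extent. Gins1 fell with IFN-gamma in control (-0.82 ± 0.09) and with sgRNA1 (-0.76 ± 0.09), and was at -0.21 ± 0.09 with sgRNA2 (adjusted p = 0.0604). Its vehicle libraries held 27.5 and 28.4 CPM in control, 31.3 and 32.3 for sgRNA1, and 20.9 and 19.5 for sgRNA2. All IFN-gamma libraries of Gins1 lay between 15.6 and 20.1 CPM.

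Mcm10, which helps to switch the loaded ring on, was at 82.1 and 83.5 CPM in control vehicle, 57.3 and 61.4 in sgRNA1 cells and 28.3 and 25.9 in sgRNA2 cells. The IFN-gamma libraries held 54.8 and 55.4 in control, 72.5 and 74.4 in sgRNA1 cells and 62.1 and 59.1 in sgRNA2 cells. Control fell below both guide lines. Its response differed from control by 0.90 ± 0.08 with sgRNA1 and 1.74 ± 0.08 with sgRNA2 (adjusted p = 2.65e-08 and 2.96e-12). Cdc45, the partner of the ring and GINS in the active helicase, was at 64.8 and 64.5 CPM in control vehicle and 72.5 and 69.6 in control IFN-gamma. With sgRNA2 Cdc45 went from 39.9 and 38.6 to 72.4 and 72.1 CPM, a rise of 0.88 ± 0.06.

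The polymerase and primase genes were the group least lowered by IFN-gamma in control. Of 6 genes, 1 fell (Prim1) and 2 rose (Pola1 and Pold1), while with sgRNA2 5 of 6 rose. The shares over all genes tested were 34.1% falling and 36.4% rising in control, and 30.5% rising with sgRNA2. The rises in control were thus near the share over all genes. Pole was at 112 and 110 CPM in control vehicle and 117 and 114 in control IFN-gamma. With the guides Pole went from 77.1 and 78.2 to 125 and 132 CPM in the sgRNA1 line and from 53.1 and 52.9 to 101 and 102 CPM in the sgRNA2 line. Pold1, the catalytic subunit of polymerase delta, was at 85.4 and 95.3 CPM in control vehicle and 124 and 124 in control IFN-gamma. With sgRNA1 it stayed at 85.5 and 82 in vehicle and 76.7 and 80.7 CPM in IFN-gamma, and with sgRNA2 it went from 76.2 and 72.5 to 97.7 and 99.5 CPM. Its difference in response was -0.55 ± 0.08 with sgRNA1, lower rather than higher. Pola1 and Pola2, subunits of the priming polymerase alpha, differed from the control response by 0.59 ± 0.09 and 0.79 ± 0.07 with sgRNA2. Pola1 was at 75.2 and 73.7 CPM in control vehicle, 54.5 and 64 in sgRNA1 vehicle and 44.6 and 45.7 in sgRNA2 vehicle. It reached 83.6 and 89.4, 82.5 and 80.9, and 78.5 and 79 CPM with IFN-gamma, so the lines drew together. Prim1 was at 87.2 and 85.7 CPM in control vehicle and 58.3 and 56.1 in control IFN-gamma, and at 85 to 118 CPM in all guide libraries. Its partner Prim2 did not pass in control or with sgRNA1 and rose by 0.59 ± 0.07 with sgRNA2, from 38 and 40.1 to 60.4 and 57.3 CPM. The control and sgRNA1 libraries of Prim2 lay between 39.8 and 46.3 CPM.

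Pcna, the sliding clamp, had the highest mean level of the 39 genes per kilobase of exon, at 158 CPM per kb over all libraries. It was at 508 and 489 CPM in control vehicle, 539 and 543 in sgRNA1 cells and 292 and 299 in sgRNA2 cells. In IFN-gamma it was at 233 and 238 in control, 356 and 343 in sgRNA1 cells and 354 and 352 in sgRNA2 cells. Pcna fell by 1.08 ± 0.04 in control and by 0.63 ± 0.04 with sgRNA1, and rose by 0.26 ± 0.04 with sgRNA2. A processed pseudogene of Pcna is in the count table and could share reads with it. Of the clamp loader genes, Rfc5 fell in control (-0.77 ± 0.05) and rose with sgRNA2 (0.51 ± 0.05). Rfc1 was at 143 and 146 CPM in control vehicle, 92.8 and 98.6 in sgRNA1 cells and 69.6 and 74 in sgRNA2 cells, and rose in all lines, to 163 and 164, 159 and 168, and 119 and 124 CPM. Rfc3 rose with IFN-gamma in the sgRNA2 line from 70.8 and 70.9 to 111 and 109 CPM and lay between 68.4 and 82 CPM in the control and sgRNA1 libraries. Rfc4 was at 54 and 53.2 CPM in control vehicle, 64 and 66.2 in sgRNA1 cells and 59.4 and 59.7 in sgRNA2 cells. In IFN-gamma Rfc4 was at 40.2 and 42.8, 49.7 and 49, and 65.1 and 66.3 CPM. Its small excess in sgRNA2 vehicle was not called when either control vehicle or either sgRNA2 vehicle library was left out (adjusted p = 0.053 to 0.177), nor without the first sgRNA2 IFN-gamma library (0.0934). Rfc2 fell with IFN-gamma in control (-0.28 ± 0.05) and rose with sgRNA2 (0.43 ± 0.05).

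Of the strand processing genes, Fen1, which trims the flaps of Okazaki fragments, lies on chromosome 19 at 10199132 to 10204169 (minus strand). It was at 124 and 124 CPM in control vehicle, 100.3 and 99.1 in sgRNA1 cells and 35.7 and 34 in sgRNA2 cells. With IFN-gamma present, it stood at 47.2 and 47.1 in control, 113 and 117 in sgRNA1 cells and 57.5 and 64.3 in sgRNA2 cells. Control went from the highest line to the lowest. The response was -1.40 ± 0.06 in control, 0.21 ± 0.05 with sgRNA1 and 0.81 ± 0.06 with sgRNA2. Its difference from control was 1.60 ± 0.08 with sgRNA1 and 2.20 ± 0.08 with sgRNA2 (adjusted p = 1.53e-11 and 1.32e-13). The antisense gene Gm10143 covers 1909 exon bases of Fen1, so the Fen1 counts are uncertain over that stretch, in either direction. Lig1, which seals the fragments, was at 143 and 147 CPM in control vehicle and 141 and 141 in control IFN-gamma. With the guides Lig1 was at 103 and 102 and at 83 and 75.5 CPM in vehicle, and at 97.6 and 97.5 and at 109 and 95.5 CPM in IFN-gamma. Lig1 was below control with both guides in both treatments, as Mcm6 was. Rpa1, the large subunit of the single-strand binding protein, was at 192 and 194 CPM in control vehicle, 184 and 197 in sgRNA1 cells and 118 and 116 in sgRNA2 cells. In IFN-gamma Rpa1 was at 144 and 144, 200 and 204, and 188 and 182 CPM. Rpa2, its partner, fell in control (-0.91 ± 0.09) and rose with sgRNA2 (0.45 ± 0.09).

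All 4 nucleotide supply genes fell with IFN-gamma in control, and 3 of 4 rose with sgRNA2. Of all genes tested, 34.1% fell in control and 30.5% rose with sgRNA2. Tyms, thymidylate synthase, was at 131 and 132 CPM in control vehicle, 151 and 153 in sgRNA1 cells and 65.1 and 70.1 in sgRNA2 cells. Under IFN-gamma its level was 40.2 and 42.7 in control, 121 and 112 in sgRNA1 cells and 114 and 109 in sgRNA2 cells. In IFN-gamma the guide lines were close, differing by -0.06 ± 0.05 (adjusted p = 0.333). Its response differed from control by 1.28 ± 0.08 with sgRNA1 and 2.39 ± 0.08 with sgRNA2. Rrm2, the regulated subunit of ribonucleotide reductase, was at 297 and 297 CPM in control vehicle, 305 and 287 in sgRNA1 cells and 102 and 103 in sgRNA2 cells. The IFN-gamma libraries held 94.3 and 94 in control, 221 and 212 in sgRNA1 cells and 127 and 130 in sgRNA2 cells. Rrm1, the large subunit, moved less, from 274 and 266 to 197 and 196 CPM in control and from 181 and 172 to 262 and 247 CPM with sgRNA2. Tk1, the salvage kinase for thymidine, was at 325 and 316 CPM in control vehicle, 347 and 341 in sgRNA1 cells and 230 and 216 in sgRNA2 cells. In IFN-gamma Tk1 was at 165 and 157, 204 and 196, and 221 and 218 CPM.

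Ccne2 had the largest response of the list. The gene lies on chromosome 4 at 11191351 to 11204779 (plus strand) and shares 609 exon bases with Ints8 on the other strand. It was at 75.2 and 70.9 CPM in control vehicle, 84.6 and 89.9 in sgRNA1 cells and 24.6 and 24.9 in sgRNA2 cells. In IFN-gamma it was at 7.88 and 5.86 in control, 51.5 and 49.9 in sgRNA1 cells and 25.9 and 23.9 in sgRNA2 cells. The sgRNA2 response was 0.01 ± 0.08 (adjusted p = 0.961), and control fell below that line. The difference in response was 2.62 ± 0.12 with sgRNA1 and 3.41 ± 0.13 with sgRNA2 (adjusted p = 8.84e-12 and 1.49e-13). Ccne1, on chromosome 7 at 38097984 to 38107534 (minus strand), was at 19.3 and 17.3 CPM in control vehicle, 21.1 and 21.8 in sgRNA1 cells and 4.93 and 5.96 in sgRNA2 cells. With IFN-gamma present, it stood at 4.26 and 4.88 in control, 26.5 and 25.2 in sgRNA1 cells and 13.7 and 15.8 in sgRNA2 cells. The sgRNA2 vehicle and control IFN-gamma libraries were the low ones for Ccne1. Its difference in response was 2.27 ± 0.17 with sgRNA1 and 3.45 ± 0.19 with sgRNA2 (adjusted p = 4.6e-09 and 1.85e-11). E2f1 moved little beside these cyclins, at 52.4 and 53.7 CPM in control vehicle and 49.1 and 50.6 in control IFN-gamma. In the guide lines E2f1 ran from 37 to 43 CPM in vehicle and from 46 to 51.6 CPM in IFN-gamma.

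Other replication genes, outside the list, were counted in the same comparisons. Of all genes tested, 34.1% fell and 36.4% rose with IFN-gamma in control, 29.6% fell and 31.7% rose with sgRNA1, and 29.2% fell and 30.5% rose with sgRNA2. Of 32 other replication factors tested, 21 fell and 4 rose with IFN-gamma in control, 18 fell and 9 rose with sgRNA1, and 5 fell and 21 rose with sgRNA2. The nuclease and helicase gene Dna2 (-2.54 ± 0.14), the origin subunit gene Orc2 (-1.43 ± 0.06) and the fork protection gene Tipin (-1.39 ± 0.05) fell furthest in control. Pold4, a small subunit of polymerase delta, rose there by 1.08 ± 0.06 and was higher in sgRNA2 vehicle than in control vehicle by 1.40 ± 0.06. Of 26 other nucleotide synthesis genes, 21 fell and 2 rose in control, 16 fell and 5 rose with sgRNA1, and 3 fell and 19 rose with sgRNA2. In sgRNA2 vehicle, 22 of these 26 were lower than in control, where 35% of all genes were lower, led by Cad (-2.27 ± 0.05), which starts pyrimidine synthesis, and Ppat (-2.07 ± 0.07), which starts purine synthesis. Samhd1, an enzyme that degrades deoxynucleotides, rose with IFN-gamma in control (2.30 ± 0.04) and with sgRNA2 (1.96 ± 0.04). Of 14 checkpoint genes, 6 fell (42.9%) and 4 rose (28.6%) in control, shares near those of all genes, with a median log2 change of -0.03. In the guide lines 2 fell and 7 rose with sgRNA1, and 1 fell and 11 rose with sgRNA2.

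The regulators of S phase entry were split in direction. Of 12 genes of the E2F and RB network, 7 fell and 4 rose with IFN-gamma in control, against 34.1% lower and 36.4% higher of all genes. The rises, 33.3% of the network, were near the share over all genes. In that network 5 fell and 2 rose with sgRNA1, and 3 fell and 7 rose with sgRNA2. Tfdp1, the dimer partner of E2F, fell by 1.20 ± 0.04, and the pocket protein genes Rb1 and Rbl2, which restrain E2F, rose by 1.31 ± 0.12 and 1.02 ± 0.06. Of 14 G1 and S phase cyclins, kinases and inhibitors, 7 fell and 4 rose in control, 3 fell and 4 rose with sgRNA1, and 6 fell and 5 rose with sgRNA2. The sgRNA1 counts, 21.4% and 28.6% of this list, were not above the shares of all genes, 29.6% falling and 31.7% rising. With sgRNA2, 29.2% of all genes fell and 30.5% rose. Skp2, which marks a cyclin kinase inhibitor for destruction, fell by 1.58 ± 0.05, and the inhibitor genes Cdkn2d and Cdkn1b rose by 1.33 ± 0.05 and 0.85 ± 0.05. In sgRNA2 vehicle against control vehicle, Ccnd1, the gene of cyclin D1, was lower (-1.67 ± 0.04), and Cdkn2d and Cdkn1b were higher (1.32 ± 0.05 and 1.24 ± 0.05). With IFN-gamma in the sgRNA2 line Ccnd1 rose by 0.79 ± 0.04 and Cdkn1b fell by 0.64 ± 0.04.

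Mitosis genes were a comparison list. Of 24 tested, 14 rose and 6 fell with IFN-gamma in control, 6 rose and 11 fell with sgRNA1, and 2 rose and 16 fell with sgRNA2. Of all genes tested, 36.4% rose and 34.1% fell in control, 31.7% rose and 29.6% fell in sgRNA1 cells, and 30.5% rose and 29.2% fell in sgRNA2 cells. Past 1.5-fold, 3 mitosis genes rose and 1 fell in control, against 22.4% and 20.2% of all genes. Top2a, a topoisomerase of late S phase and mitosis, rose in control (0.70 ± 0.04) and with sgRNA2 (0.51 ± 0.04). Cdk1, the mitotic kinase gene, fell in control (-0.52 ± 0.04), and Cdc20 (-1.17 ± 0.05), an activator of chromosome separation, fell with sgRNA2. Summed over the list, mitosis genes were at 4784 and 4813 CPM in control vehicle, 4594 and 4628 in sgRNA1 cells and 4811 and 4872 in sgRNA2 cells. In IFN-gamma the sum was 5626 and 5631 in control, 4338 and 4372 in sgRNA1 cells and 4203 and 4272 in sgRNA2 cells. So the sgRNA2 vehicle libraries, lowest for the replication genes, were within the range of control for mitosis genes or above it. In that contrast 7 mitosis genes were higher and 9 lower with sgRNA2, where 38.3% of all genes were higher and 35% lower. Upper quartile scaling turned the mitosis counts to 13 higher and 6 lower. The E2F motif was in 1 of 20 mitosis promoter windows (5%). The CHR element of mitotic genes, searched as TTTGAA or TTCGAA on both strands, was in 75% of them, 19.4% of the members' windows and 16.9% of those of the table's genes.

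**Figure D4:**
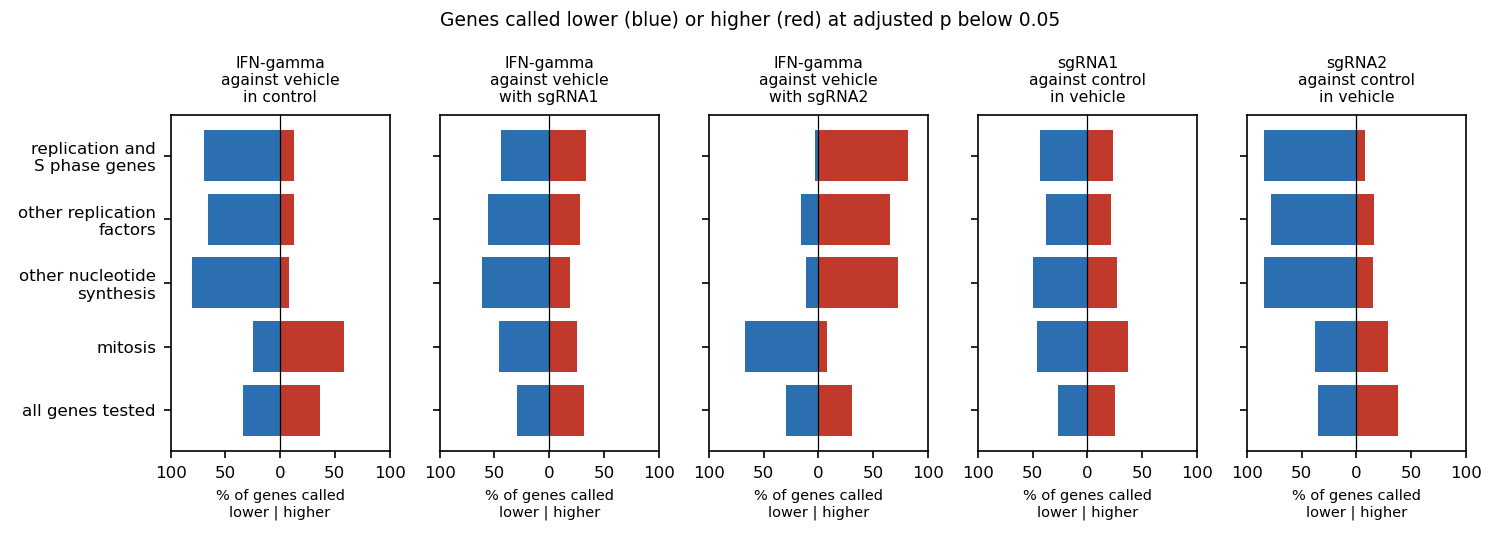
Bars give the percentage of each gene list called lower (to the left, blue) or higher (to the right, red) at an adjusted p below 0.05 in 5 comparisons, with all genes tested as the bottom row. The replication, other replication and nucleotide synthesis lists turn from mostly lower to mostly higher between IFN-gamma in control and with sgRNA2, while mitosis genes turn the other way.

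Scaling bears on the contrasts between lines in vehicle. With upper quartile scaling the all-gene median rose 0.17 for sgRNA2 against control, 0.10 for sgRNA1 and 0.14 for the guides averaged. Among all calls, the part that was higher went from 52.3% to 62.5%, from 48.8% to 62.8% and from 50.2% to 62.1%. For the members the sgRNA2 median of -0.80 is several times the shift, whereas that of sgRNA1 is about as small as the shift.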

How the data were processed

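The 12 libraries fall into 6 groups, taken from the titles and the treatment entry, because IFN-gamma stands in the protocol text of every sample. The values the authors deposited are raw read counts, 1 whole number for each gene and library. The labels' protocols name 1 ug of total RNA as input and a TruSeq kit, whose strand setting was treated as unstranded. Per the submitters' processing notes, STAR 2.4.0, HTSeq, DESeq2 1.10 and the build mm10 were used, and the step of each is not given in the sources used here.

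From the counts, edgeR 4.0.16 (R 4.3.3, limma 3.58.1) kept 13601 genes with filterByExpr (minimum count 10, minimum total 15), scaled libraries by TMM (factors 0.963 to 1.09) and fitted a quasi-likelihood model with 1 term per group to all 12 libraries. The fit had 6 residual degrees of freedom and a common biological coefficient of variation of 4.67%. A gene was called at a Benjamini-Hochberg adjusted p below 0.05 over all genes tested, in each of 14 comparisons. Each SE is the size of the log2 fold change over the square root of F, so it restates the test. The fit was tested on simulated counts. Alternatives were DESeq2 1.42.0, other size factors, upper quartile scaling, no filter, fewer groups, a replicate block, each library left out, a fold limit of 1.5 and the guides as 1 group.

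The 39 members, the other lists and the genes named were chosen with earlier results of these data known. Values are given for Cebpd, for the 4 largest called rises and falls of each comparison, and for the member with the most reads in each role; others are named where they complete a complex. Up to 3 rises and 3 falls of other lists may be named. Chromosome positions are from GENCODE vM21 on GRCm38, promoters from RefSeq on GRCm38.p6. Intervals and p-values do not cover errors of guide or culture. Results for some genes of the wider lists are not reported here.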

Additional observations from a re-analysis of the deposited data

Results flagged for a closer look

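The direction of the IFN-gamma response differed between the control and guide lines for 6 genes, which fell in control and rose with each guide, and the difference itself was tested with edgeR. For sgRNA1 against control the difference in log2 fold change was 2.271 for Ccne1, 1.604 for Fen1, 0.9319 for Mcm3, 0.896 for Mcm10, 0.7164 for Mcm2 and 0.5409 for Mcm4. For sgRNA2 against control it was 3.449 for Ccne1, 2.204 for Fen1, 1.744 for Mcm10, 1.585 for Mcm3, 1.378 for Mcm2 and 1.298 for Mcm4. All 12 differences had an adjusted p of 1.48e-06 or less. The 6 genes were picked for opposite calls in these same libraries. A difference in response therefore follows from the choice, and these p-values are no separate support for it. How many of all genes had opposite calls is not given here. Under upper quartile scaling the rise with sgRNA1 was called for Mcm3 and Mcm10 and not for the other 4. Groups of 2 libraries were too small to look for outlying libraries.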

How the results depend on the processing

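Every comparison kept its count of called members within 1.5 times under DESeq2, other size factors, upper quartile scaling, no filter, fewer groups and the replicate block. Leaving out each library gave 29 to 33 called members for IFN-gamma in control, 23 to 30 with sgRNA1 and 32 to 33 with sgRNA2. With a fold of at least 1.5 also required, fewer members were called, since many changes were small. IFN-gamma against vehicle gave 20 in control, 7 with sgRNA1 and 18 with sgRNA2. Guide against control in vehicle gave 17 averaged and 4 with sgRNA1, and in IFN-gamma 9 averaged, 12 with sgRNA1 and 9 with sgRNA2. sgRNA2 against sgRNA1 gave 22 in vehicle and 6 in IFN-gamma. The difference in response gave 23 averaged and 15 with sgRNA1. With the guides as 1 group, 15 members were called in vehicle, 12 in IFN-gamma and 7 in the difference, and the gap between guides then counts as error. Of 473 called results for single genes, upper quartile scaling ended or turned 25, DESeq2 27 and leaving out some library 48. None of these 3 settings ended a call above 0.338 on the log2 scale. Taking the guides as 1 group ended 75, all in comparisons of the guides averaged, with sizes up to 1.904. Upper quartile scaling turned Orc6 in vehicle, guides averaged, to 0.007982 (adjusted p = 0.902) and Mcm3 in IFN-gamma with sgRNA2 to 0.008197 (adjusted p = 0.876). Libraries with the same replicate number did not deviate together (correlations from -0.0788 to 0.0642 over 15 pairs of groups), so the number pairs nothing known. With it as a block, 27 members were called for sgRNA1 in vehicle in place of 26, and 1 single call, Orc6 with IFN-gamma in the sgRNA1 line, was lost (adjusted p = 0.0543). With 2 libraries per group and 6 residual degrees of freedom, small changes are limited by this spread. Depth limits members with few reads as well, such as Ccne1 with 88 and 95 counts in control IFN-gamma.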
